A study of Rattus norvegicus with 8 samples.

Results

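A set of 8 receptor genes, measured on 12 array spots, was followed in the adult medial prefrontal cortex of rats that had received fluoxetine as juveniles. All encode G protein-coupled receptors: 5 respond to neuropeptides (Galr2, Hcrtr1, Nmbr, Avpr1a and Adcyap1r1), Ptger1 responds to the lipid prostaglandin E2, and Gpr158 and Gprc5b belong to the class C family and were long treated as orphans. They were selected on the array values themselves: the authors listed their probes as higher or lower in treated rats, at a mean treated value of at least 0.4 or at most -0.4 on the log2 scale, a p-value of at most 0.05 and detection on at least 3 or 4 arrays of the group with more signal. They are 8 of the 530 named genes in the authors' lists, and their 12 spots stand among 582 listed probes, 322 higher and 260 lower, on an array of 15207 probes. That choice used the comparison of treated with control rats, so the differences below are descriptions of the selected genes and carry no test of their own.

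The treated group, JFLX, received fluoxetine at 10 mg/kg, a serotonin reuptake inhibitor prescribed as an antidepressant, from postnatal day 28 to day 48. Control rats received the vehicle, a 5% sucrose solution, over the same days, and both groups were sampled at 6 months of age. Each group holds 4 samples, total RNA of the whole medial prefrontal cortex labelled with the dye Cy3 and hybridised to custom Agilent rat arrays. The strain, the sex and whether each sample came from a separate animal are not stated, so the spread between samples may be partly technical. In the labels, control replicates 2 to 4 carry a description that mentions fluoxetine, while their titles and source names place them among the vehicle controls, and the titles were followed.

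Neuropeptides are released more slowly and act at lower concentrations than classical transmitters, and their receptors tune the excitability of cortical neurons through G proteins. Receptors coupled to Gq activate phospholipase C and release calcium through inositol trisphosphate receptors, whereas receptors coupled to Gs raise cyclic AMP and activate protein kinase A. In the prefrontal cortex such receptors are studied for their part in arousal, social behaviour and responses to stress.

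The values of each spot are log2 values relative to the median of the 4 control arrays at that spot, so 0 is the control median and the level of a gene cannot be set against that of another. The lower list held 5 of the receptor genes and the higher list 3. Of the 12 spots, 9 had groups that did not overlap: 6 of the 9 lower spots and all 3 higher spots. Of these 6 lower spots, 5 repeat a single Galr2 probe. By gene, the groups did not overlap for Galr2 and Hcrtr1 and overlapped for Nmbr, Avpr1a and Ptger1. Non-overlapping groups were found at 2.95% of all probes in the lower and 10.0% in the higher direction, and at 68.8% of the listed lower and 73.9% of the listed higher probes. In limma with Benjamini-Hochberg adjustment over all probes, 5 lower spots and 1 higher spot passed 0.05, against 0.355% and 5.89% of all probes in those directions and 18.8% and 32.6% of the listed ones. The 6 spots were those of Galr2 and Adcyap1r1. No receptor spot passed in limma with quantile normalization or with a trended, robust variance (0 of 12 in each). At an unadjusted p under 0.05 they numbered 11 and 10 of the 12. With the replicate number as a block, 2 receptor spots passed. Over the whole array, 896 higher and 54 lower probes passed in the fit as reported. Quantile normalization left 0 probes of the array. The trended, robust variance left 759 higher and 0 lower probes, and the block 743 higher and 21 lower. Because the same contrast chose the genes, nothing is read from these counts. In whole tissue, fewer cells of a type and less RNA per cell cannot be told apart.

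**Figure D1:**
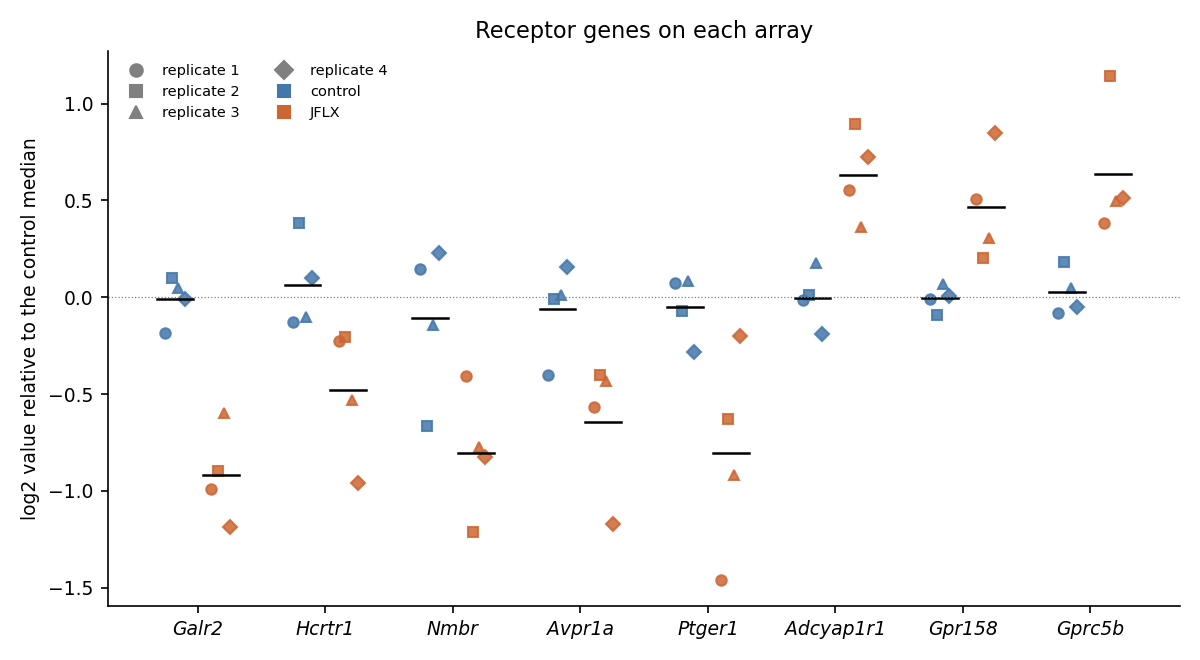
Log2 value of each receptor gene relative to the control median (vertical axis) on each of the 4 control and 4 JFLX arrays, with the mean over spots for Galr2. Symbols mark the replicate number and bars the group mean. The groups do not overlap for Galr2, Hcrtr1, Adcyap1r1, Gpr158 and Gprc5b and overlap for Nmbr, Avpr1a and Ptger1.

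Galr2, a receptor of the peptide galanin that couples mainly to Gq, was represented by 5 listed spots, more than any other member. All 5 spots carry the same 60-base probe, shown because they are repeat measurements of a single sequence. The deposited position of the probe is chr10:106410517-106410576 on the plus strand, in a genome build not given in the sources used here.
Galr2 probe: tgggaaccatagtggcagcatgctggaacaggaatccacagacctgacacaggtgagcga

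Averaged over its 5 spots, Galr2 stood at -0.19, 0.10, 0.05 and -0.01 on control replicates 1 to 4. On JFLX replicates 1 to 4 it stood at -0.99, -0.90, -0.60 and -1.19. Every JFLX array lay below every control array, and JFLX replicate 3 came closest to the controls. The group means were -0.01 ± 0.12 in control and -0.92 ± 0.24 in JFLX (SD, n = 4 each), a difference of -0.91 on the log2 scale. The single spots differed by -0.71 to -1.15, with standard errors from 0.14 to 0.21. Each spot was flagged as detected on only 1 or 2 of the 4 JFLX arrays, so the JFLX side lay mostly near background, these sizes are not exact and no fold is given. The 5 spots each missed an adjusted p of 0.05 in 2 to 9 of 16 other settings.

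The repeat spots show the scatter of a single sequence on the same array. Within an array, the SD over the 5 spots had a median of 0.12 in the control arrays and 0.19 in the JFLX arrays. The spot means varied between arrays by an SD of 0.12 in control and 0.24 in JFLX, so scatter between spots of the same array was of similar size to the spread between control samples. On JFLX replicate 4 the spots ran from -1.55 to -0.60, the widest range of the 8 arrays. The highest JFLX spot of all, at -0.45 on JFLX replicate 3, lay just below the lowest control spot, at -0.43 on control replicate 1. The 5 spots are listed because each met the authors' rule, so they are not a random draw of repeat measurements. Probes outside the lists carry no gene name here, so whether the array holds further Galr2 spots is not known.

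**Figure D2:**
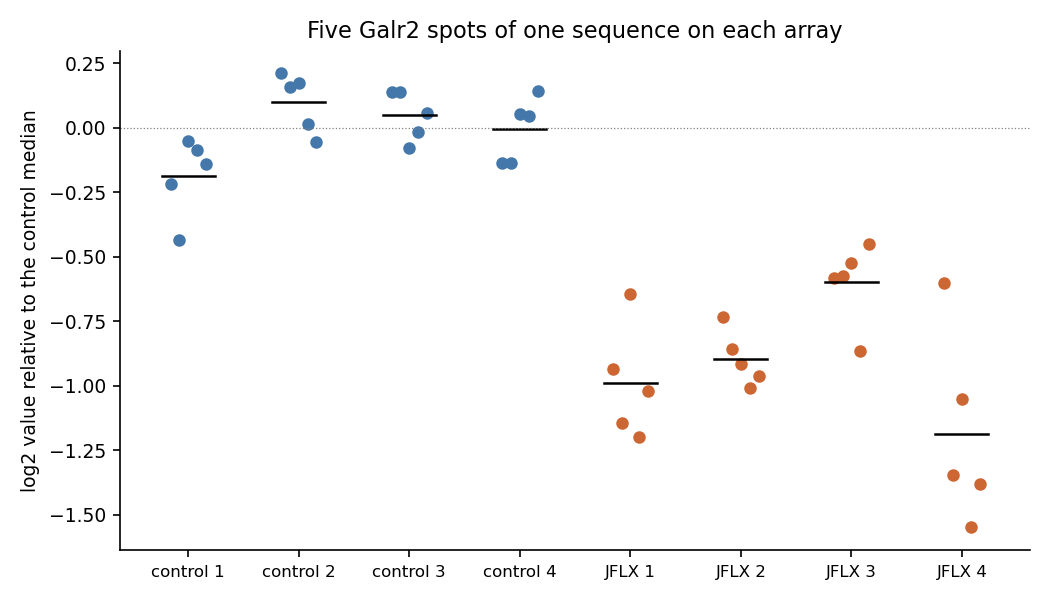
Log2 value of the 5 Galr2 spots relative to the control median (vertical axis) on each array, with a bar at the mean of the spots. JFLX replicate 4 shows the widest scatter, from -1.55 to -0.60, and no JFLX spot reaches the lowest control spot at -0.43.

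All 5 Galr2 spots were flagged as detected on the 4 control arrays. Averaged over the spots, the background-subtracted intensity was 24.4, 25.0, 27.3 and 33.5 on the control arrays in rising order, and 7.07, 14.1, 14.5 and 19.6 on the JFLX arrays. The intensities too did not overlap, but 3 of the 4 JFLX means lay under a limit of their own array. That limit is the lowest signal on the array of the listed probes detected on all 4 JFLX arrays.

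Hcrtr1 encodes the receptor of orexin (hypocretin) that is preferred by orexin A and couples mainly to Gq. Its probe is shown because its 60 bases map to a stretch of 1019 positions, chr5:149174596-149175614 on the minus strand of the same build, and so span more genome than the probe is long.
Hcrtr1 probe: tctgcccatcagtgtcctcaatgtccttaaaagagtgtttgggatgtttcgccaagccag

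Hcrtr1 stood at -0.13, 0.39, -0.10 and 0.10 on control replicates 1 to 4 and at -0.22, -0.20, -0.53 and -0.96 on JFLX replicates 1 to 4. The groups did not overlap, but the gap between the lowest control and the highest JFLX array was only 0.07. The difference was -0.54 ± 0.20 (SE), 1.46-fold lower in JFLX, and JFLX replicate 4 lay farthest from the controls. Hcrtr1 was the only lower gene of the set that was detected on all 8 arrays. Before normalization its intensities overlapped, from 61.0 to 110.5 in control and from 21.8 to 64.5 in JFLX.

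Avpr1a, Nmbr and Ptger1 carried the detected flag on every control array (4 of 4) and on 0 of the 4 JFLX arrays. Of the listed lower probes, 45.0% shared that pattern of no detection in JFLX. In the higher list the share was 0.00% by the listing rule, which asked there for detection on JFLX arrays. These 3 genes were not well above background in JFLX. No fold is given because their mean control signal was not above the mean of the JFLX array limits described for Galr2.

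Avpr1a encodes the vasopressin receptor of brain and vessel wall, a Gq-coupled receptor studied in social behaviour. It stood at -0.40, -0.01, 0.01 and 0.15 on control replicates 1 to 4 and at -0.56, -0.40, -0.43 and -1.17 on JFLX replicates 1 to 4. Control replicate 1 and JFLX replicate 2 met at -0.40, so the groups touched. Its deposited probe position, chr7:62249970-62250028, spans 59 positions for a 60-base probe.

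The promoter of Avpr1a is shown because it holds the letters TGACG, a core of the cyclic AMP response element, within the 250 bases before the gene's start, in chr7:59999493-59999547 of RefSeq's assembly GRCr8 on the plus strand. The capitals mark these letters, which begin 240 bases before the start. Of the 8 genes only Avpr1a and Hcrtr1 held TGACG or its reverse complement CGTCA in that window. For 6 of the 8 genes, Hcrtr1 among them and Avpr1a not, the window lies inside the annotated span of the gene, which has a start farther upstream. In the RefSeq table, 18.2% of 33469 windows of that length hold either form, and 1.59% hold the full element TGACGTCA, which overlaps both and was found in 0 of the 8. A match describes the letters of the window and no binding.
Avpr1a promoter: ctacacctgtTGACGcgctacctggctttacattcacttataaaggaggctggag

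Nmbr encodes the receptor of neuromedin B, a bombesin-like peptide, and couples to Gq. It stood at 0.14, -0.66, -0.14 and 0.23 on control replicates 1 to 4 and at -0.41, -1.21, -0.78 and -0.83 on JFLX replicates 1 to 4. Replicate 2 was the lowest array of each group, and control replicate 2 lay below JFLX replicate 1. Nmbr was the only gene of the set whose control arrays spread more than its JFLX arrays, with an SD of 0.40 against 0.33.

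Ptger1 encodes EP1, a prostaglandin E2 receptor that raises intracellular calcium. It stood at 0.07, -0.07, 0.08 and -0.28 on control replicates 1 to 4 and at -1.46, -0.63, -0.92 and -0.20 on JFLX replicates 1 to 4. JFLX replicate 4 lay above control replicate 4, so the groups overlapped, and the JFLX arrays had an SD of 0.53, the widest of the set. Before normalization the groups did not overlap, with JFLX intensities from 3.51 to 6.03. Its probe position, chr19:26165522-26165569, spans 48 positions for a 60-base probe.

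The intensities place these 3 genes near the floor of the measurement. Control intensities ran from 10.5 to 15.5 for Avpr1a, from 8.99 to 14.6 for Nmbr and from 7.81 to 10.3 for Ptger1. The lowest signal of a listed probe that was detected on all arrays of its group lay between 5.11 and 6.97 on the control arrays, but between 9.06 and 19.1 on the JFLX arrays. All 4 control intensities of each of the 3 genes were therefore under the limit of 3 of the 4 JFLX arrays, the lowest of those 3 limits being 15.5. Of the 117 listed lower probes detected on 0 JFLX arrays, 115 had a mean control intensity under the highest JFLX limit of 19.1. The part of this higher limit in the lower values of Avpr1a, Nmbr and Ptger1 was not tested.

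**Figure D3:**
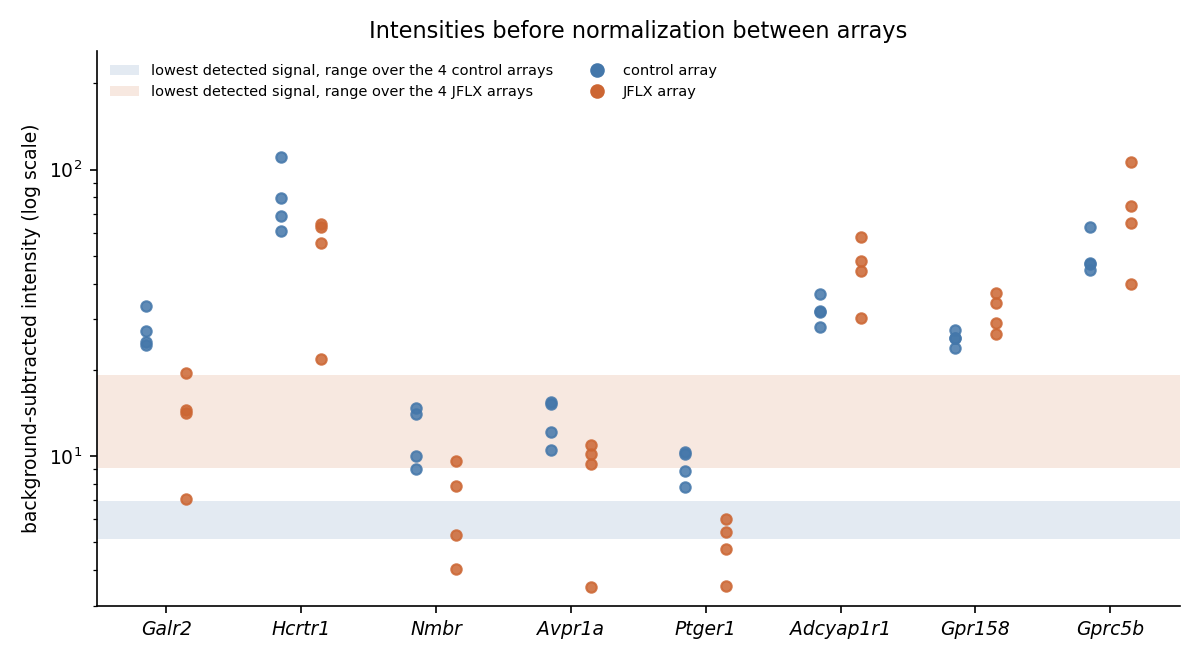
Background-subtracted intensity of each receptor gene before normalization between arrays (vertical axis, log scale), a point per array, with Galr2 averaged over its spots. Shaded bands span, over the 4 arrays of each group, the lowest signal of the listed probes detected on all 4. They run from 5.11 to 6.97 in control and from 9.06 to 19.1 in JFLX. Avpr1a, Nmbr and Ptger1 lie in or under the JFLX band in both groups, and Hcrtr1 and the 3 higher genes lie above it.

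Adcyap1r1 encodes PAC1, the receptor of the peptide PACAP, which couples to Gs and to Gq and is studied in stress responses. It stood at -0.01, 0.01, 0.18 and -0.19 on control replicates 1 to 4 and at 0.56, 0.89, 0.36 and 0.72 on JFLX replicates 1 to 4. Every JFLX array lay above every control array, with a gap of 0.19 between the groups. The difference was 0.64 ± 0.14 (SE), 1.55-fold, and Adcyap1r1 did not pass an adjusted p of 0.05 in 12 of 16 other settings. It was detected on all 8 arrays, with intensities from 28.1 to 36.8 in control and from 30.3 to 58.3 in JFLX, so that before normalization the lowest JFLX array fell within the control range.

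Gpr158, a class C receptor enriched in cortical neurons, binds the regulator of G protein signalling RGS7 and has been tied to stress behaviour in mice. Its probe is shown because the gene was named only as a predicted transcript when the array was designed. The deposited position is chr17:95738162-95738221 on the plus strand.
Gpr158 probe: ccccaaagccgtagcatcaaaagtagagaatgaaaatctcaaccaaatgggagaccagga

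Gpr158 stood at -0.01, -0.09, 0.07 and 0.01 on control replicates 1 to 4, the tightest control group of the set with an SD of 0.07. On JFLX replicates 1 to 4 it stood at 0.51, 0.20, 0.31 and 0.85, with an SD of 0.28. The groups did not overlap, and JFLX replicate 4 was the highest. The difference was 0.47 ± 0.15 (SE), 1.39-fold, the smallest of the 3 higher genes, and its mean JFLX value of 0.47 lay near the authors' limit of 0.4. Before normalization the intensities overlapped, from 23.8 to 27.5 in control and from 26.6 to 37.2 in JFLX.

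Gprc5b, the other class C receptor, belongs to a family named for its induction by retinoic acid. It stood at -0.08, 0.18, 0.05 and -0.05 on control replicates 1 to 4 and at 0.39, 1.14, 0.50 and 0.51 on JFLX replicates 1 to 4. JFLX replicate 2 stood apart from the other JFLX arrays, which lay within 0.39 to 0.51, and all of them were above the controls. The difference was 0.61 ± 0.18 (SE), 1.53-fold, and without JFLX replicate 2 it was 0.44. Gprc5b did not pass an adjusted p of 0.05 in the fit as reported or in any of 16 other settings. Intensities ran from 44.6 to 63.2 in control and from 39.9 to 105.9 in JFLX before normalization.

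The p-value nearest to the authors' limit among the 8 genes was that of Hcrtr1, at 0.0435 in the authors' deposited table. Probes outside the lists carry no gene name here, so receptors just beyond the limits were not analysed here. The median difference was 0.57 over the 311 probes of the higher list with a gene name, and 0.04 over all 15207 probes. Over the 254 named probes of the lower list it was -0.59, a value that includes probes detected on 0 JFLX arrays. Such probes made up 45.0% of all 260 listed lower probes, named or not.

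JFLX arrays spread more than control arrays at 7 of the 8 genes, with a median SD ratio of 1.74 over the 8. Among the 7, Avpr1a and Ptger1 were detected on 0 JFLX arrays and the Galr2 spots on 1 or 2. The part of signal near background in this spread was not tested. Over all probes the JFLX SD was the larger at 56.6%, with a median ratio of 1.10. The extreme JFLX array differed from gene to gene: the lowest JFLX value came from JFLX replicate 4 for Galr2, Hcrtr1 and Avpr1a, JFLX replicate 2 for Nmbr and JFLX replicate 1 for Ptger1. Among the higher genes, JFLX replicate 2 was the highest for Adcyap1r1 and Gprc5b and JFLX replicate 4 for Gpr158. In the intensities 1 JFLX array was the dimmest of its group at 548 of the 582 listed probes (94.2%) and at 11 of the 12 receptor spots. The intensity columns name no replicate, so that array could not be tied to a replicate number. The deposited normalization moved the difference between the groups by the same amount at every listed probe, log2 intensity giving differences lower than the normalized ones by 0.18.

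Under other settings all 8 genes kept the sign of their difference, as the plot of differences by setting shows for the 5 that were detected on at least 1 JFLX array, Galr2 on 1 or 2 and the other 4 genes on all of them. The groups of these 5 genes do not overlap, so leaving out an array cannot change their sign. Centring on the 75th percentile of an array shifts all differences by -0.19. The smallest difference among the higher genes was 0.47, so that shift cannot change a sign either. The kept signs are therefore no support of their own. Under it, Galr2 stood at -1.10, Hcrtr1 at -0.74, Adcyap1r1 at 0.44 and Gpr158 at 0.28. With one array left out at a time, Galr2 ranged from -1.01 to -0.82, Hcrtr1 from -0.64 to -0.38, Adcyap1r1 from 0.55 to 0.73, Gpr158 from 0.34 to 0.56 and Gprc5b from 0.44 to 0.69. Hcrtr1 moved most with JFLX replicate 4, without which it stood at -0.38.

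**Figure D4:**
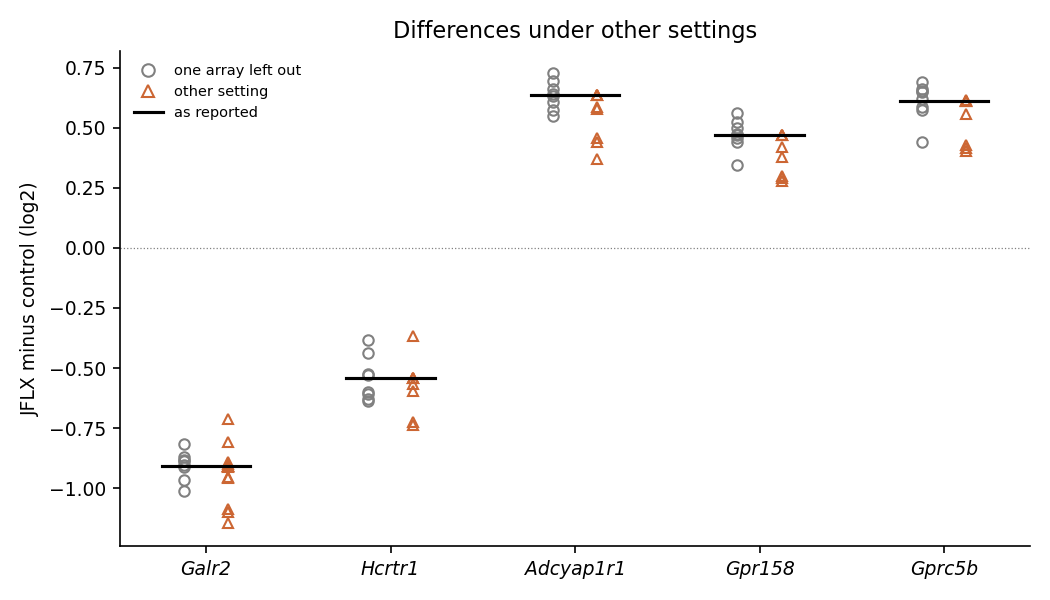
Difference between JFLX and control on the log2 scale (vertical axis) for the 5 receptor genes detected on at least 1 JFLX array. Bars give the reported value, circles the value with 1 array left out and triangles the value under the other settings. The signs are the same throughout, which the non-overlapping groups fix in advance for the circles, and Gpr158 comes closest to 0, at 0.28.

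Other genes of the same signalling routes were drawn from 7 lists of ligands, receptors, G proteins, effectors and regulators with 287 genes in all. Of these, 12 genes are listed by the authors, 7 higher and 5 lower, and only listed probes carry names here. Among 65 further neuropeptide receptors Sstr4, a somatostatin receptor, is listed, at 0.51 ± 0.16 (SE). Among 15 genes of prostanoid reception and synthesis Ptger2, the Gs-coupled prostaglandin E2 receptor EP2, is listed, at -0.49 ± 0.17, and it was detected on 2 JFLX arrays. Of 48 orphan and class C receptors and Gpr158 partners, Gpr19 is listed at -0.42 ± 0.13 and Gpr173 as detected on 0 JFLX arrays. The peptide gene Nmu, for neuromedin U, was the single listed member of 27 ligand genes and was detected on 3 control and 0 JFLX arrays. None of these 5 genes passed limma's test (adjusted p from 0.0602 for Gpr173 to 0.177 for Ptger2). The lists of 47 monoamine and amino acid receptors and of 19 desensitization genes had 0 listed members. Over the array, 582 of 15207 probes are listed. Whether the unlisted genes have probes on it is not known here, so an absence from the lists shows no lack of change.

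The transducers beneath the receptors gave 7 listed genes of 66, of which 6 had higher values, and 1 passed limma's test in each direction. Of all 530 named listed genes 291 were higher, and 32.6% of the listed higher and 18.8% of the listed lower probes passed. Nothing is read from these counts. Prkaca, a catalytic subunit of protein kinase A, rose by 0.57 ± 0.12 (SE, adjusted p = 0.0336), from a control range of -0.08 to 0.37 to a JFLX range of 0.53 to 0.70. It did not pass in 11 of 16 other settings, in which its adjusted p ran from 0.00708 to 0.797. Itpr2, an inositol trisphosphate receptor of the endoplasmic reticulum, passed in the lower direction (adjusted p = 0.0168). Its flag was detected on 4 control and 0 JFLX arrays, so no fold is given, and it did not pass in 5 of 16 other settings (adjusted p from 0.00459 to 0.157).

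The remaining transducers did not pass. The Gq alpha subunit gene Gnaq stood at 0.39 ± 0.15 (SE), the Gi alpha subunit gene Gnai2 at 0.48 ± 0.15 and the adenylyl cyclase gene Adcy1 at 0.61 ± 0.17. Prkar2a, a regulatory subunit of protein kinase A, stood at 0.62 ± 0.23, and the 2 listed probes of Gna12 at 0.57 ± 0.18 and 0.66 ± 0.19. Their adjusted p ran from 0.0905 for Adcy1 to 0.256 for Gnaq. The median difference over the listed probes of the 7 lists was 0.48, beside 0.41 over all listed probes with a gene name. Differences of the listed probes with a gene name start at 0.32 in the higher and at -0.35 in the lower list. Each median therefore follows the share of higher probes and gives no typical difference, and both include probes detected on 0 JFLX arrays. Members enter these counts because the authors listed them on the same arrays, so they are not independent evidence of a direction.

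**Figure D5:**
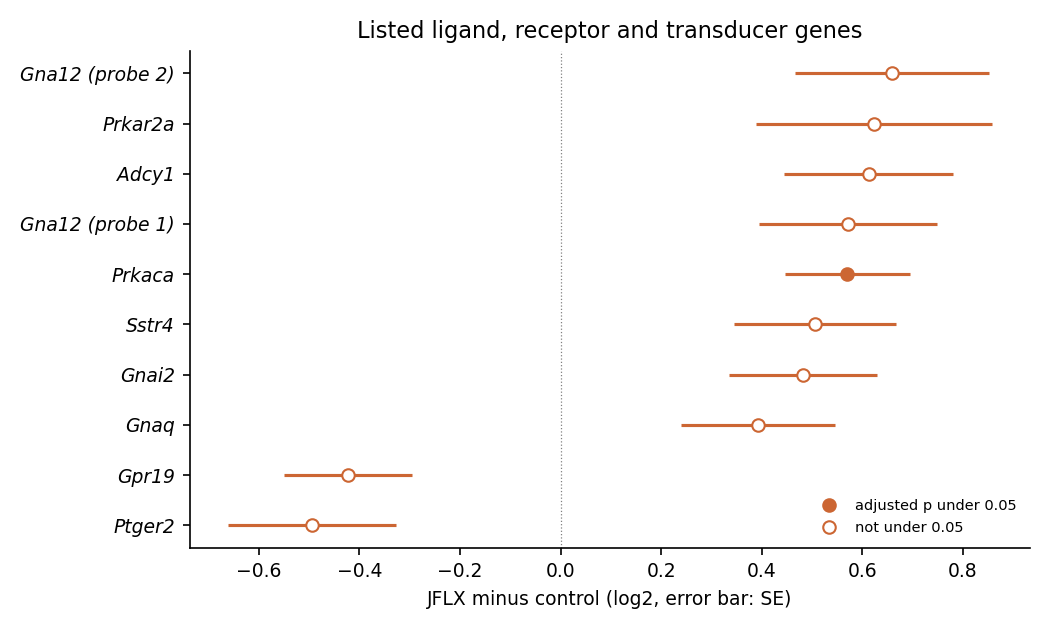
Difference between JFLX and control on the log2 scale (horizontal axis, error bars are SE) for listed genes of ligands, receptors and transducers that were detected on at least 1 JFLX array. Filled points passed limma's adjusted p of 0.05. Prkaca at 0.57 is the only filled point.

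Of 43 cell type markers in 7 lists, 5 are listed, beside 582 of the 15207 probes on the array. The astrocyte enzyme glutamine synthetase, Glul, fell by 0.51 ± 0.11 (SE, limma adjusted p = 0.0362) and did not pass in 10 of 16 other settings (adjusted p from 0.0137 to 0.291). Camk2a at 0.56 and Neurod2 at -0.46 for excitatory neurons, Kcnc1 at 0.50 for interneurons and Pecam1 at 0.68 for endothelial cells did not pass. The lists for oligodendrocytes, their precursors and microglia had 0 listed members. Levels of the other markers were not analysed here, since their probes are unnamed, and the part of cell composition in the receptor values was not tested.

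Likeness to other genes was measured as the root mean square difference over the 8 arrays against 522 other named listed genes. The nearest to Galr2 were Spock2, at 0.15, and Abt1, at 0.18. For Hcrtr1 they were Nptxr and Cradd, both at 0.13, for Avpr1a Eif2b4 at 0.11 and Ctxn1 at 0.12, for Ptger1 Klf3 at 0.12 and Lama2 at 0.18. Nmbr had no close neighbour, with Tmem35a at 0.26 and Pex2 at 0.30. The JFLX values of Avpr1a, Ptger1 and Nmbr that enter these distances were not well above background. Among the higher genes, Gprc5b lay closest to Kcnab1, at 0.08, and Cit, at 0.12, Adcyap1r1 to Nf2, at 0.11, and Wdtc1, at 0.13, and Gpr158 to Zmynd11, at 0.12, and Ube2o, at 0.13. Within the set, the most alike pair was Adcyap1r1 and Gprc5b, at 0.17, followed by Hcrtr1 and Avpr1a, at 0.24. All listed genes were chosen for a difference between the same 2 groups, so a small distance to genes of the same list follows in part from that choice.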

How the data were processed

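Expression was measured in 8 samples, 4 per group, on Agilent arrays with a single dye, per the labels. The deposited value table holds log2 values, which the authors centred on the control median of each of 15207 probes, by a normalization between arrays and with scanner software not given in the sources used here. Per the file headers and read-me sheet, the authors' lists give background-subtracted intensity per array, authors' mean log2 values, a p-value and counts of arrays flagged as detected. The authors' p-value matched an equal-variance test of the value table to a relative 7.91e-07. A further 16 columns per list, with folds and flags of single arrays, stayed unused. All arrays share a slide, with control and JFLX arrays in separate position blocks per the read-me sheet, so position and treatment cannot be told apart.

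Names came from the gene ID through RefSeq's GRCr8 table for 551 of the 582 listed probes; 565 have a symbol, for 530 genes. The fit was limma 3.58.1 in R 4.3.3, two-sided, over all probes, checked on simulated data, with Python 3.11.15 for tables. The members and gene lists were chosen with earlier results of these data known. Named genes were the 8 members, their 2 nearest genes each and every listed gene of the lists. Alternatives were other scalings, variance models and weights, a replicate block, leaving out arrays, averaged probes and unnormalized intensities.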

Additional observations from a re-analysis of the deposited data

Results flagged for a closer look

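Among 24 groups of 4 values tested with Dixon's criterion, where chance gives about 1 in 20, or 1.2, a single value stood apart. JFLX replicate 2 was the highest JFLX array for Gprc5b, at 1.14 against 0.39 to 0.51 on the other 3, with a gap of 0.834 of the range.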

How the results depend on the processing

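The 8 genes gave 133 differences under other settings, of which 129 moved by less than the SD between replicates, 4 moved by more and 0 changed sign. The variance model, the block and the averaging of a gene's spots keep each difference by construction, so the 129 include differences that could not move. The genes were listed for their difference on these arrays, so an unchanged sign is no support of its own. The 4 that moved by more were Adcyap1r1 with quantile normalization (0.37) and 75th percentile centring (0.44), and Galr2 with that centring (-1.10) and in spot 4 alone (-1.15). In the fit as reported 950 probes passed, 896 higher and 54 lower, and 6 receptor spots. Quantile normalization left 0 probes, 0 higher, 0 lower and 0 receptor spots in limma, with 1298 probes and 11 receptor spots at an unadjusted p under 0.05. Trend and robust in eBayes left 0 lower and 759 higher probes and 0 receptor spots. At an unadjusted p under 0.05 there were 369 lower probes and 10 receptor spots. Centring on the 75th percentile gave 221 lower and 682 higher probes and 5 receptor spots. Array weights gave 113 lower and 1047 higher probes and 7 receptor spots, that of Ptger1 among them, and median centring gave 6 receptor spots. With one array left out, lower probes ranged from 19, without control replicate 3, to 62, and receptor spots from 2 to 6. They numbered 2 without control replicate 2, control replicate 3, JFLX replicate 1 or JFLX replicate 2, and 3 without control replicate 4. Lower probes were 32, 35 and 23 without control replicate 2, control replicate 4 and JFLX replicate 1. Averaging the spots of a gene left 2 genes, Galr2 and Adcyap1r1, by construction on 8 genes in place of 12 spots. With the replicate number as a block, 21 lower and 743 higher probes and 2 receptor spots passed. Deviations of same-numbered arrays correlated at -0.04, 0.40, 0.12 and -0.28, and JFLX replicates 2 and 3 correlated best with their own number. So few values cannot tell whether same-numbered samples share more than a number. The mean absolute difference named 12 of the 16 nearest genes again. The number of arrays and signal near background limit the precision.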
